A study of Mus musculus with 28 samples.

Results

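The genes described here are 32 genes of glucose breakdown and of the response to low oxygen, taken by symbol from a table of 53801 features, and every one of the 32 was in that table. They comprise 4 genes of glucose and lactate transport, 14 glycolytic enzyme genes, 2 genes that set fructose 2,6-bisphosphate, 3 genes that decide the fate of pyruvate, 3 genes of hypoxia-inducible factor (HIF) and its oxygen-sensing hydroxylases, and 6 other targets of the hypoxia response. They were measured in regulatory T (Treg) cells sorted as TCR+CD4+CD25hi CD127lo lymphocytes from C57BL/6 mice, female and male, that carried CT2A tumors, an orthotopic mouse model of glioblastoma (GBM). Once tumors had reached 2 mm3, mice received 4 doses of IgG2a, an isotype control antibody, or of αPD1 + αGITR, which block the PD1 inhibitory receptor and engage the co-stimulatory receptor GITR, at 250 µg per mouse and 3 days apart, and tissue was taken 2 days after the last dose. Libraries are named as in the labels. Each of the 27 libraries is a Smart-Seq2 bulk library said to come from a different mouse: 7 splenic and 5 GBM libraries after IgG2a, and 8 splenic and 7 GBM libraries after αPD1 + αGITR. The age of the mice is not given in the sources used here, and all groups were tumor-bearing, so no spleen of a mouse without a tumor serves as a baseline. The labels call the animals different, but the study's account of the experiment counts fewer animals than splenic libraries, and several libraries share a number (spleen_79_a to spleen_79_d, for example). Libraries of the same number may therefore share an animal, in which case the p-values here, which treat each library as its own animal, are too small.

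Glycolysis splits glucose into pyruvate in the cytosol. The pyruvate can then enter mitochondria or be reduced to lactate, and activated T cells often take the second route. When oxygen is scarce, the prolyl hydroxylases encoded by *Egln1* and *Egln3* no longer mark HIF-1α for breakdown, and the factor binds short hypoxia response elements near glycolytic genes and near genes such as *Bnip3*. Because HIF-1α is controlled mainly at the level of the protein, the *Hif1a* transcript is not a measure of HIF activity. Treg cells in lymphoid tissue are known to rely more on lipid oxidation than on glycolysis, and tumors are often poor in both oxygen and glucose.

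The promoters of members are shown first, around the core letters of the hypoxia response element, since the list includes known HIF targets. The letters ACGTG and GCGTG were searched on both strands from 250 bases before to 50 bases after each start, taken from RefSeq sequences on GRCm38. Of the 41 promoters of 30 members, 80.5% held at least one of the 2 words, against 43.8% of all 32851 promoters and 49.3% of the 21263 promoters of protein-coding genes. ACGTG alone was in 56.1% of member promoters and 19.6% of all promoters, and GCGTG alone in 58.5% and 32.4%. The cores closest to the start in 8 members are printed 5′ to 3′ on the strand of the gene, with the core in capitals (CACGT and CACGC are the same words read on the other strand). They include the members with the largest tissue differences in mice given αPD1 + αGITR, *Hif1a*, *Slc16a3*, *Pgam1*, *Bnip3* and *P4ha1*. The members with the largest differences after IgG2a, *Aldoc*, *Tpi1* and *Aldoa*, are not among them. Cores were also found in members that did not differ between tissues in treated mice by the tests below, such as *Pdk1*, *Ldhb* and *Hk1*.

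*Slc16a3*, chr11:120949041-120949066, 14 bases before the start: cgtgcgcgggggACGTGccgcgcgac

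*Hif1a*, chr12:73907785-73907813, 70 bases before the start: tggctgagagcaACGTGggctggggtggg

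*Bnip3*, chr7:138909525-138909553, 35 bases before the start: ggctccgccgccGCGTGcgtcccgccccg

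*P4ha1*, chr10:59323268-59323295, 16 bases before the start: tgtgacagagcgCACGTagcgagggctg

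*Pgam1*, chr19:41911771-41911799, 88 bases before the start: actgccgggtagCACGCgggtaccgctac

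*Pgk1*, chrX:106186957-106186985, 131 bases before the start: aaatggaagtagCACGTctcactagtctc

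*Ldha*, chr7:46845758-46845786, 34 bases before the start: cgtgggttcccgCACGTccgctgggctcc

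*Slc2a1*, chr4:119108697-119108725, 36 bases before the start: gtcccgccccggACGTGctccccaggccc

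Each core lies upstream of the annotated start of transcription. The list was drawn up with hypoxia targets in it, so a higher share of these letters is no independent result. A match is a description of the letters in the window and not a site of HIF binding, which was not measured. *Eno2*, *Tpi1* and *Gpi1* held neither word in the window. *Tpi1* and *Gpi1* were among the members higher in treated GBM. Whether these letters bear on the level of a member was not tested.

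The libraries differed in quality before any grouping. Between 7702 and 17460 features exceeded 1 TPM, the 10 most abundant features took 31.9% to 78.3% of a library, and read depth is unknown because TPM keeps none. *Foxp3* was found in all 27 libraries (21.5 to 440 TPM), as were *Cd3e* (16.4 to 684 TPM) and *Cd4* (31.4 to 204 TPM). The summed level of 7 T cell markers was 247 to 2535 TPM in splenic and 1351 to 3826 TPM in GBM libraries, and these ranges overlapped. Of 15 macrophage and microglia markers, all in the table, the sum was 69.2 to 669 TPM in IgG2a spleen, 36.5 to 858 in treated spleen, 162 to 15335 in IgG2a GBM and 95.6 to 6064 in treated GBM. The highest sums were those of IgG2a GBM library tumor_79_a and treated GBM libraries tumor_73_a and tumor_74_a, and *Adgre1* had a median of 0 in treated GBM and in both splenic groups, the only marker of the list at a median of 0 in treated GBM. The complement gene *C1qa*, also of that list, had medians of 0.73 and 4.29 TPM in IgG2a and treated spleen and of 14.6 and 26.4 TPM in IgG2a and treated GBM. Erythroid marker sums reached 28414 TPM in treated spleen and 201 TPM in treated GBM. Of 10 candidate tumor cell markers, *Sox2*, *Fabp7* and *Postn* had a median of 0 in all 4 groups. Without *Vim*, which T cells also express, the sum was 2.0 to 50.4 TPM in splenic and 7.26 to 268 TPM in GBM libraries. IgG2a GBM library tumor_369_a stood apart with the fewest features above 1 TPM (7702), and among the 23 members with a mean above 10 TPM it was the lowest of its group in 11 and the highest in 6.

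The 32 members together took 0.0389% to 0.516% of all TPM in IgG2a spleen, with a median of 0.125%, and 0.0506% to 0.239% in treated spleen, with a median of 0.169%. In GBM they took 0.327% to 0.587% after IgG2a (median 0.389%) and 0.43% to 0.945% after αPD1 + αGITR (median 0.514%). All 7 treated GBM libraries lay above all 8 treated splenic ones, whereas after IgG2a splenic library spleen_79_b (0.516%) exceeded 4 of the 5 GBM libraries. Splenic libraries also varied among themselves. Library spleen_79_b was the highest of its group in 15 of the 23 abundant members and spleen_79_a the lowest in 14, and in treated spleen spleen_72_b was the lowest in 13. As a ratio to the summed T cell markers of the same library, a description chosen after seeing the data, the members' sum was 1.35 to 2.39 in IgG2a spleen, 1.11 to 2.29 in treated spleen, 0.989 to 3.79 in IgG2a GBM and 1.5 to 5.35 in treated GBM. On that ratio the tissues overlapped in both treatments. In bulk samples, fewer cells of a type and less RNA per cell cannot be told apart.

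**Figure D1:**
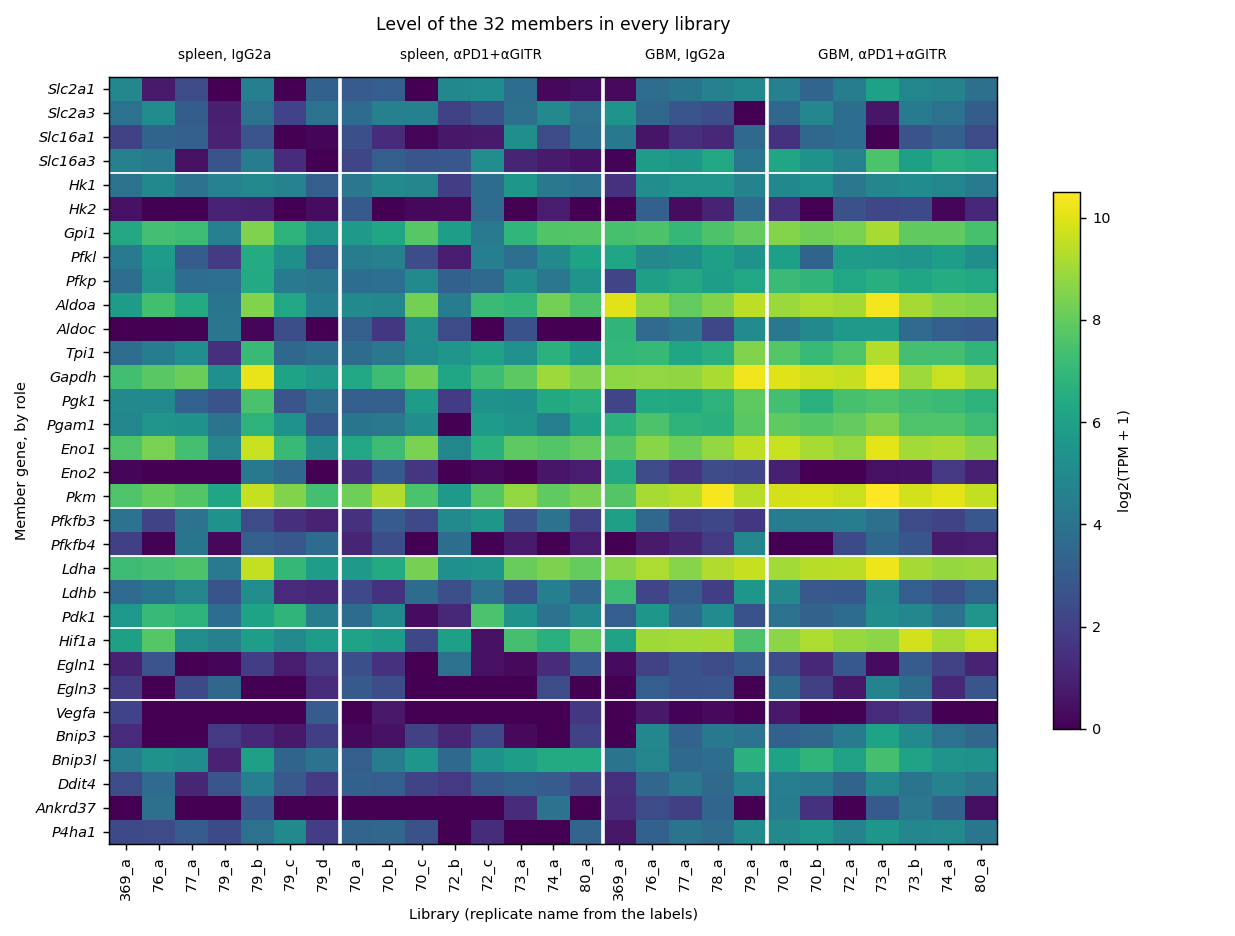
Heat map of log2(TPM + 1) for the 32 members (rows, ordered by role, white lines between roles) in the 27 libraries (columns, by group). The glycolytic enzyme genes and *Hif1a* are brighter in most GBM libraries than in most splenic ones, while *Hk2*, *Eno2*, *Vegfa*, *Egln1*, *Egln3* and *Ankrd37* are dark in most libraries of every group.

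By group median, 22 of the 32 members were highest in treated GBM, 6 in IgG2a GBM, 4 in IgG2a spleen and 0 in treated spleen. TPM is scaled per transcript length, so that levels of different members can be compared. In treated GBM the members with the highest median level were *Pkm* (895 TPM), *Gapdh* (794), *Eno1* (557), *Hif1a* (556), *Aldoa* (544) and *Ldha* (544). At the other end *Vegfa*, the vascular growth factor, was listed at 0 in 16 of 27 libraries and did not exceed 7 TPM. *Ankrd37* was listed at 0 in 13, *Egln3* in 10, *Eno2* in 8 and *Hk2* in 7.

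The first comparison asks how Treg cells of the tumor differed from those of the spleen in mice given αPD1 + αGITR. Most glycolytic enzyme genes, the lactate exporter gene *Slc16a3*, *Hif1a* and 3 other hypoxia targets were higher in GBM, and no member was called lower. Of the 32 members, 24 passed the minimum of a mean of 10 TPM in at least 1 of the 2 groups, and 23 of these 24 were higher on average in GBM. The study set a threshold of more than 2-fold and p below 0.05, and its test is not given in the sources used here. With that threshold on limma's unadjusted p, called the criterion in what follows, 18 were called higher and 0 lower, against 33.9% and 6.31% of the 7506 genes tested. After Benjamini-Hochberg adjustment over all genes, 16 were higher, against 15.8% of the genes tested. Over these 24 the log2 fold change had a median of 2.10, and over all genes one of 0.95, with 77.6% of all genes above 0. Relative to the median of all genes, 19 of the 24 were higher and 5 lower. For 13 members every GBM library exceeded every splenic library, against 2.96% of the genes tested. These 13 were *Pgk1*, *Aldoa*, *Ddit4*, *Gapdh*, *Eno1*, *P4ha1*, *Pfkp*, *Pkm*, *Hif1a*, *Bnip3*, *Tpi1*, *Ldha* and *Pgam1*. A member that passes the minimum only through the tissue where it is high is more likely to differ by that choice alone, so these counts are read beside the background and not as support. This holds for 6 of the 24, *Slc16a3*, *Aldoc*, *Ldhb*, *Bnip3*, *P4ha1* and *Ddit4*, whose mean was above 10 TPM in GBM only. Of the 18 members above 10 TPM in both tissues, 13 passed the criterion and 11 passed adjustment in a fit of such genes alone, against 37.1% and 11.4% of the genes in that fit in either direction. *Actb*, a general cytoskeletal gene that is no member, was at 777 to 7612 TPM in treated spleen and 6235 to 13590 TPM in treated GBM. Of 7 T cell markers, 5 were called higher in the same comparison, as were 6 of 10 macrophage and microglia markers tested (*Cx3cr1* at 2.97, limma adjusted p = 0.00756, and *C1qa* at 2.59, limma adjusted p = 0.0381) and both candidate tumor cell markers tested (*Vim* at 3.19, limma adjusted p = 9.71e-05, and *Cd44* at 2.22, limma adjusted p = 0.0107), the last 2 also being T cell genes. Of 2 B cell markers tested, *Igkc* was higher at 2.39 (limma adjusted p = 0.0458) and *Ighm* was at 0.31 (limma adjusted p = 0.648), and the summed B cell markers were 51.2 to 496 TPM in treated spleen and 146 to 386 TPM in treated GBM. Of 7 Treg markers, 6 were called higher, and all 5 erythroid markers tested were lower. Their part in the members' difference was not tested.

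The transporter genes differed from each other. *Slc16a3*, which encodes the lactate exporter MCT4, was 0.41 to 34.95 TPM in treated spleen with a median of 4.71, and 24.5 to 186 TPM in treated GBM with a median of 72.6. Of the 7 GBM libraries, 6 exceeded every splenic library. Its log2 fold change was 3.78 (SE 0.65, limma adjusted p = 0.000872, exact permutation p = 0.000466). *Slc2a1*, the glucose transporter GLUT1, was 0 to 33.8 TPM in spleen (median 7.38) and 9.74 to 63.0 TPM in GBM (median 22.9). The groups overlapped, and the log2 difference of 1.98 (SE 0.76) did not pass adjustment (limma adjusted p = 0.0644, exact permutation p = 0.0416). Its call by the criterion was lost in 5 of 13 alternatives (a pseudocount of 10, TMM-type factors, rescaling without the 10 most abundant features, quantile normalization and macrophage-rich libraries left out), and the value ran from 0.87 to 2.87 over the 13. *Slc2a3*, the high-affinity glucose transporter GLUT3 of lymphocytes, had medians of 13.9 TPM in spleen and 12.9 TPM in GBM. *Slc16a1*, the importer and exporter MCT1, stayed below the minimum with medians of 2.96 and 5.50 TPM.

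The main genes for each step from fructose 1,6-bisphosphate to pyruvate were higher. *Aldoa*, the main aldolase gene, was 20.6 to 319 TPM in treated spleen (median 132) and 368.6 to 1267 TPM in treated GBM (median 544). No GBM library reached down to the splenic range, and the log2 fold change was 2.53 (SE 0.59, limma adjusted p = 0.00808, exact permutation p = 0.000777). *Tpi1*, triose phosphate isomerase, was 12.1 to 104 TPM in spleen and 117 to 627 TPM in GBM, a log2 fold change of 2.33 (SE 0.51, limma adjusted p = 0.00589, exact permutation p = 0.000311). *Gapdh*, often used as a reference gene, was 70.3 to 494 TPM in spleen and 506 to 1405 TPM in GBM, a log2 fold change of 2.09 (SE 0.47, limma adjusted p = 0.00641, exact permutation p = 0.000311).

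The genes of both ATP-making enzymes were also higher. *Pgk1*, phosphoglycerate kinase on chromosome X, was 2.65 to 99.1 TPM in spleen and 103 to 196 TPM in GBM. Its lowest GBM library stood just above its highest splenic one, and its log2 fold change was 2.48 (SE 0.63, limma adjusted p = 0.0129, exact permutation p = 0.000932). *Pkm*, pyruvate kinase and the most abundant member in treated GBM, was 50.7 to 626 TPM in spleen and 751 to 1451 TPM in GBM, a log2 fold change of 1.95 (SE 0.46, limma adjusted p = 0.00898, exact permutation p = 0.000311).

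Between them in the pathway, *Pgam1*, phosphoglycerate mutase, was 0 to 66.1 TPM in spleen (median 28.2) and 146 to 354.3 TPM in GBM (median 211). It had the largest log2 fold change of the enzymes, 3.39 (SE 0.67, limma adjusted p = 0.00254, exact permutation p = 0.000311), which fell to 2.76 without library spleen_72_b, where it was listed at 0. *Eno1*, the ubiquitous enolase, was 27.5 to 334 TPM in spleen and 419 to 1077 TPM in GBM, a log2 fold change of 2.11 (SE 0.50, limma adjusted p = 0.00848, exact permutation p = 0.000311). The deposited table lists near copies of several of these genes as features of their own. *Eno1b*, a near copy of *Eno1*, was at most 13.8 TPM in any library, which was up to 33.4% of its sum with *Eno1* in treated spleen. A second gene of the symbol *Aldoa*, also protein-coding, was at most 5.21 TPM, so the way reads were shared among copies leaves some uncertainty in each of these levels.

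Earlier steps of the pathway were less uniform. *Pfkp*, the platelet-type phosphofructokinase, was 8.70 to 41.9 TPM in spleen and 71.4 to 141 TPM in GBM without overlap, a log2 fold change of 2.27 (SE 0.47, limma adjusted p = 0.0037, exact permutation p = 0.000311). *Pfkl*, the liver type, overlapped between tissues, with 0.81 to 67.4 TPM in spleen, 9.5 to 60.3 TPM in GBM and a log2 difference of 1.35 (SE 0.65, limma adjusted p = 0.123, exact permutation p = 0.0667). Its call was kept in 1 of 13 alternatives and in 5 of 15 fits with a library left out. Within a library *Pfkp* made up a median of 38.2% of the sum of both types in treated spleen, with a range of 33.5% to 91.5%, and 65.2% in treated GBM, with a range of 59.1% to 92.4%. This share does not depend on the scaling of the library.

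*Gpi1*, glucose phosphate isomerase, was 19.4 to 217 TPM in spleen and 172 to 567 TPM in GBM, a log2 fold change of 1.71 (SE 0.52, limma adjusted p = 0.0304, exact permutation p = 0.00373). In 6 of 7 GBM libraries it exceeded every splenic library. *Aldoc*, the minor aldolase, was 0 to 35.3 TPM in spleen and 6.74 to 49.1 TPM in GBM, a log2 fold change of 2.43 (SE 0.75, limma adjusted p = 0.0327, exact permutation p = 0.0118), and 2 of 7 GBM libraries exceeded the splenic range. *Hk1*, the hexokinase that carries most hexokinase transcript here, had medians of 17.1 TPM in spleen and 28 TPM in GBM and did not pass the criterion. *Hk2*, the inducible hexokinase, stayed below the minimum, at 0 to 11.6 TPM in spleen and 0.01 to 5.13 TPM in GBM, and made up a median of 6.53% of the 2 hexokinases in treated GBM. *Eno2* was also below the minimum, with medians of 0.675 and 0.41 TPM.

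Among the genes that act on pyruvate, *Ldha*, the lactate dehydrogenase subunit that favors lactate, was 37.6 to 348 TPM in treated spleen (median 172) and 454 to 1192 TPM in treated GBM (median 544). All GBM libraries were above all splenic ones, and the log2 fold change was 2.32 (SE 0.54, limma adjusted p = 0.00821, exact permutation p = 0.000622). *Ldhb*, the other subunit, was 1.93 to 21.9 TPM in spleen and 5.16 to 30.7 TPM in GBM, and *Ldha* was the larger part of the 2 in every library, from 72.8% to 99.5%. *Pdk1*, whose kinase inhibits the oxidation of pyruvate in mitochondria and which is a textbook HIF target, was not called. Its levels were 0.26 to 182 TPM in spleen (median 21.9) and 9.16 to 44.1 TPM in GBM (median 14.9). Of the regulators of fructose 2,6-bisphosphate, *Pfkfb3* had medians of 6.57 and 13.5 TPM, and *Pfkfb4* was below the minimum with medians of 0.715 and 0.78 TPM.

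*Hif1a* itself had a log2 fold change of 3.83 (SE 0.81, limma adjusted p = 0.00444, exact permutation p = 0.000466). It was 0.39 to 229 TPM in treated spleen, with a median of 64.0, and 408 to 870 TPM in treated GBM, with a median of 556. The lowest GBM library was above the highest splenic one. Its fold change was the largest of the members as deposited, but without spleen_72_c it was 3.14 and that of *Slc16a3* 4.19. The hydroxylase genes were low: *Egln1* had medians of 1.69 and 3.18 TPM, and *Egln3* was listed at 0 in 5 of 8 splenic libraries and was 0.59 to 24.6 TPM in GBM.

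Of the 6 remaining hypoxia targets, 3 were higher as well, all of them among those that passed the minimum through GBM only. *Bnip3*, which tags mitochondria for removal, was 0 to 3.95 TPM in treated spleen and 8.68 to 67.7 TPM in treated GBM, a log2 fold change of 3.16 (SE 0.63, limma adjusted p = 0.00258) with the smallest p the exact permutation test can give here, 0.000155. *P4ha1*, the catalytic subunit of collagen prolyl hydroxylase, was 0 to 10.1 TPM in spleen and 16.5 to 45.9 TPM in GBM, a log2 fold change of 3.16 (SE 0.65, limma adjusted p = 0.00367, exact permutation p = 0.000622). *Ddit4*, an inhibitor of mTORC1 also known as REDD1, was 2.31 to 8.62 TPM in spleen and 9.39 to 28.9 TPM in GBM. Its difference was smaller, with a log2 fold change of 1.55 (SE 0.50, limma adjusted p = 0.0366, exact permutation p = 0.000155). Relative to the median of all genes *Ddit4* was only 0.59 higher, and its adjusted p was 0.304 with TMM-type scaling.

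*Bnip3l*, the paralog of *Bnip3*, did not pass the criterion, at 8.05 to 83.9 TPM in spleen and 40.2 to 168 TPM in GBM. *Bnip3* made up a median of 2.84% of the 2 genes' sum in treated spleen and 22.4% in treated GBM, and the range of 0% to 9.82% in spleen overlapped that of 8.04% to 32.1% in GBM. *Ankrd37* and *Vegfa* stayed below the minimum in both tissues, *Ankrd37* at 0 in 6 of 8 splenic and 1 of 7 GBM libraries, and *Vegfa* at 0 in 6 and 3.

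**Figure D2:**
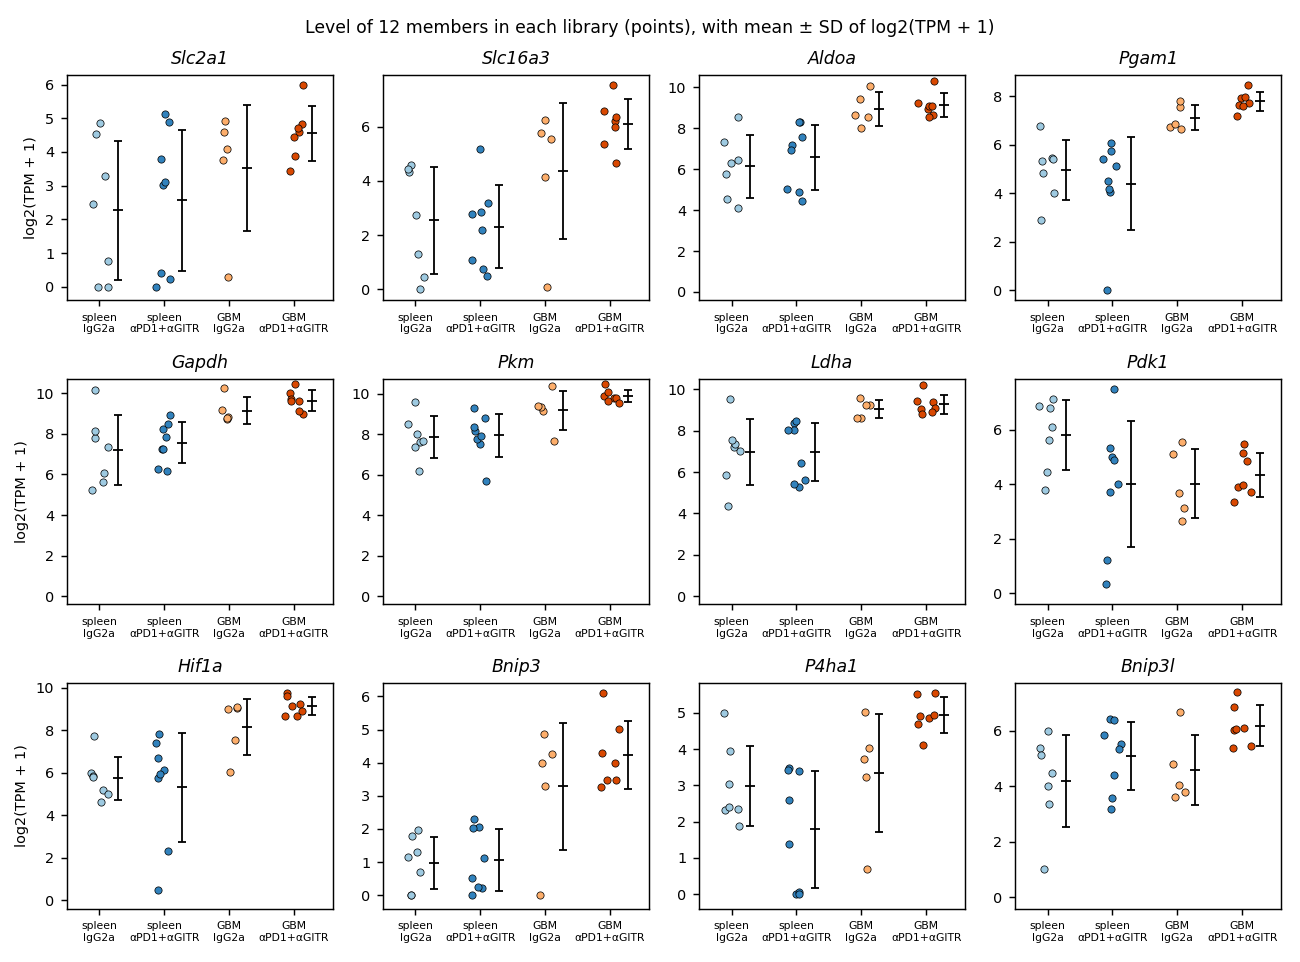
Level of 12 members in each library as log2(TPM + 1): each point is 1 library, and the bar beside the points is the mean with the SD of the group (7 IgG2a splenic, 8 treated splenic, 5 IgG2a GBM and 7 treated GBM libraries). In treated mice *Hif1a*, *Bnip3*, *P4ha1*, *Aldoa*, *Pgam1*, *Gapdh*, *Pkm* and *Ldha* show no overlap between GBM and spleen, while *Pdk1* and *Bnip3l* overlap.

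All 16 kept their direction under every scaling, and their size changed. With TMM-type factors, which set the bulk of genes level, the median of all genes tested moved from 0.95 to 0.27, the median of the members from 2.10 to 1.32, and 12 members passed adjustment in place of 16. Of all genes 8.05% passed there in either direction, in place of 17.5%. With quantile normalization 13 passed, against 14.6% of all genes, and with rescaling to protein-coding genes 13, against 5.25%. *Hif1a* and *Slc16a3* remained the 2 largest log2 fold changes with TMM-type factors, at 3.09 and 3.00. Leaving out the GBM libraries rich in macrophage transcripts (tumor_73_a and tumor_74_a), an alternative chosen after seeing the data, left 10 members past adjustment, against 4.79% of all genes. The median over the members was 1.94 there, and *Hif1a* was at 3.93. Averaging libraries of the same label number left 9, against 3.38%, and testing all genes without the minimum left 7, against 0.6%.

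**Figure D3:**
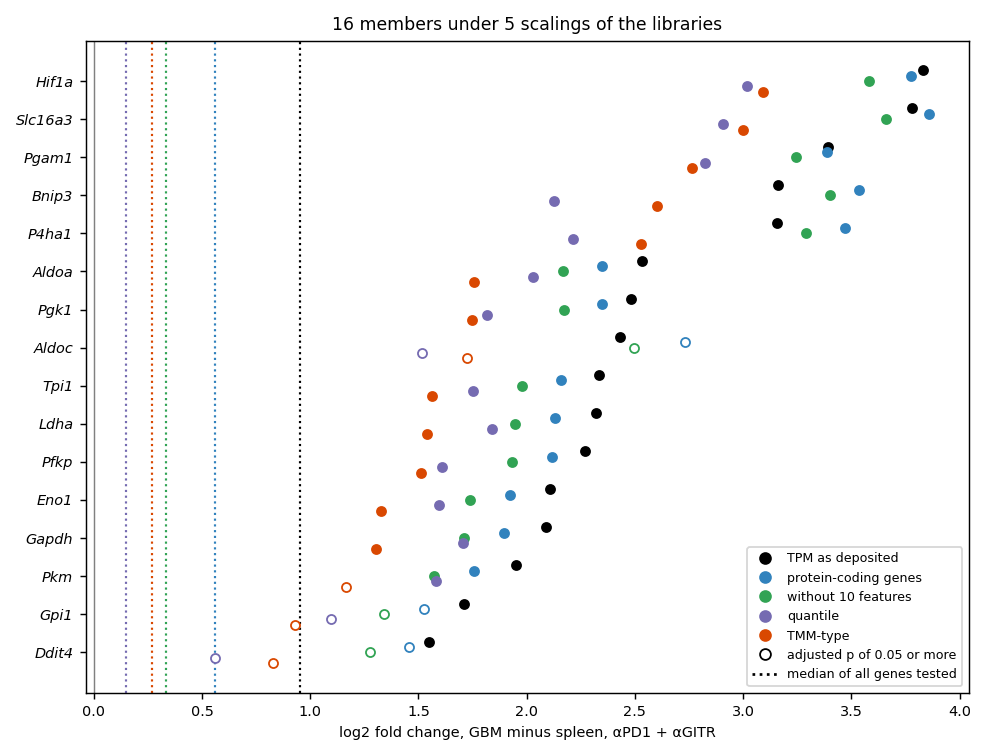
Log2 fold change of GBM against spleen after αPD1 + αGITR for the 16 members past adjustment, under 5 scalings of the libraries (colors). Filled points have a limma adjusted p below 0.05 and dotted lines mark the median of all genes tested, from 0.95 as deposited to 0.15 with quantile normalization; all points lie above 0, and *Aldoc*, *Gpi1* and *Ddit4* do not pass adjustment in any of the 4 rescalings.

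The same tissue comparison in mice given IgG2a asks whether the difference is there without treatment. Members were again mostly higher in GBM, but the libraries varied more and no member passed adjustment. Of 25 members past the minimum, 23 were higher on average in GBM, and their median was 1.33 on the log2 scale, against 0.48 and 66.1% above 0 for all 7380 genes tested. Relative to that median, 19 of 25 were higher. Of the 25, 6 had a mean above 10 TPM in GBM only, *Aldoc* and *Bnip3* among them. The criterion called 8 members higher and 1 lower, against 7.63% and 2.30% of all genes. None passed adjustment, where the lowest limma adjusted p was 0.0979, and 42 of all genes passed. Of the 9 members called by the criterion, 3 passed with all 4 groups in one fit, *Tpi1* (limma adjusted p = 0.0197), *Aldoa* (limma adjusted p = 0.0303) and *Aldoc* (limma adjusted p = 0.0367). In that fit 1.9% of the genes tested passed. With quantile normalization 1 of these 9 passed, *Aldoa* (limma adjusted p = 0.0251), as did 1.38% of all genes. The 9 were picked by their p in the same libraries, so neither count can be set against the share of all genes. No member had every GBM library above every splenic library, against 1.25% of all genes. Markers of Treg and of other cells differed in this comparison too. Of 7 Treg markers, 3 were called higher, led by *Tnfrsf18* at 3.17 (limma adjusted p = 0.0531). The summed B cell markers were 38.5 to 1373 TPM in IgG2a spleen, highest in spleen_79_b, and 53.4 to 437 TPM in IgG2a GBM. Both neuron and glia markers tested were called higher (*Mbp* at 2.99 and *Gfap* at 2.34), as were 2 of 12 macrophage and microglia markers (*Cx3cr1* at 3.30 and *C1qa* at 3.51), 2 of 7 T cell markers and 1 of 3 candidate tumor cell markers (*Vim* at 2.37), and 5 of 5 erythroid markers were called lower. Their part in the members' difference was not tested.

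*Aldoa* came closest. Its 5 GBM libraries were at 1057, 403, 255, 368.8 and 694 TPM, and its splenic libraries ran from 16.01 to 368 TPM with a median of 77.96. GBM and spleen met only through library spleen_79_b, and 4 of 5 GBM libraries exceeded the splenic range. The log2 fold change was 2.80 (SE 0.79, limma adjusted p = 0.0979, exact permutation p = 0.00631), and the adjusted p ran from 0.0266 (without library spleen_79_b) to 0.234 over the 12 fits with a library left out. *Tpi1* was 123, 129, 70.8, 97.6 and 367 TPM in GBM and 1.70 to 134 TPM in spleen (median 13.3). Its log2 fold change was 2.88 (SE 0.84, limma adjusted p = 0.121, exact permutation p = 0.0114), and the adjusted p ran in the same way from 0.0286 (without library spleen_79_b) to 0.34. *Aldoc* was 115, 11.8, 17.1, 3.70 and 32.7 TPM in GBM and listed at 0 in 3 of 7 splenic libraries, where its median was 0.05 TPM, a log2 fold change of 3.42 (SE 1.00, limma adjusted p = 0.121, exact permutation p = 0.00884).

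*Pgam1* was 105, 188, 114, 101 and 225 TPM in GBM and 6.42 to 110 TPM in spleen, giving a log2 fold change of 2.16 (SE 0.77, limma adjusted p = 0.277, exact permutation p = 0.00758). *Ldha* was 392, 599, 386, 606 and 771 TPM in GBM and 19.6 to 751 TPM in spleen, giving a log2 fold change of 2.07 (SE 0.78, limma adjusted p = 0.331, exact permutation p = 0.0164). *Gapdh* was 419, 449, 432, 573 and 1235 TPM in GBM and 37.2 to 1145 TPM in spleen, giving a log2 fold change of 1.94 (SE 0.80, limma adjusted p = 0.391, exact permutation p = 0.0417). In each of these the highest splenic value was that of library spleen_79_b. The call of *Gapdh* was lost without library tumor_79_a, where its log2 fold change was 1.66.

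*Hif1a* stood at 510, 522 and 546 TPM in GBM libraries tumor_76_a, tumor_77_a and tumor_78_a, and at 65.6 TPM in tumor_369_a and 188 TPM in tumor_79_a. Splenic libraries ran from 23.4 to 211 TPM with a median of 55.5, so 3 of 5 GBM libraries were above all splenic ones and 2 were within their range. The log2 fold change was 2.41 (SE 0.77, limma adjusted p = 0.178, exact permutation p = 0.0101). Both low libraries are those that stood apart above, tumor_369_a with few features and tumor_79_a with the highest macrophage marker sum. Their part in the spread of *Hif1a* was not tested. *Bnip3* was listed at 0 in tumor_369_a and was 28, 8.91, 18.1 and 14.9 TPM in the other GBM libraries, against 0 to 2.88 TPM in spleen. Its log2 fold change was 2.30 (SE 0.98, limma adjusted p = 0.419, exact permutation p = 0.0189), and it was 3.12 without tumor_369_a. The call ended without tumor_76_a (1.90), tumor_78_a (2.06) or tumor_79_a (2.12), and in 5 of 12 alternatives. Among these 5, leaving out macrophage-rich libraries is the same fit as that without tumor_79_a.

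*Pdk1* was the member called lower. It was 12.8 to 140 TPM in IgG2a spleen, with a median of 67.5, and 7.76, 46.1, 11.7, 33.7 and 5.31 TPM in IgG2a GBM. The groups overlapped, and the log2 fold change was -1.80 (SE 0.82, limma adjusted p = 0.467, exact permutation p = 0.0442). Leaving out a single library ended the call in 6 of 12 cases. Of the 16 members that did not pass the criterion, log2 differences ran from -0.44 (*Slc2a3*) to 1.88 (*Eno2*), with a median of 0.86. *Slc16a3* was one of these: it was 0.07 TPM in tumor_369_a and 53.0, 45.5, 75.0 and 16.5 TPM in the other GBM libraries, against 0 to 22.9 TPM in spleen. *Pkm* was 204 TPM in tumor_369_a and 558, 648, 1328 and 674 TPM in the others, against 72.6 to 770 TPM in spleen. *Pgk1* and *Pfkp* were likewise lowest in tumor_369_a, at 3.63 and 3.6 TPM.

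**Figure D4:**
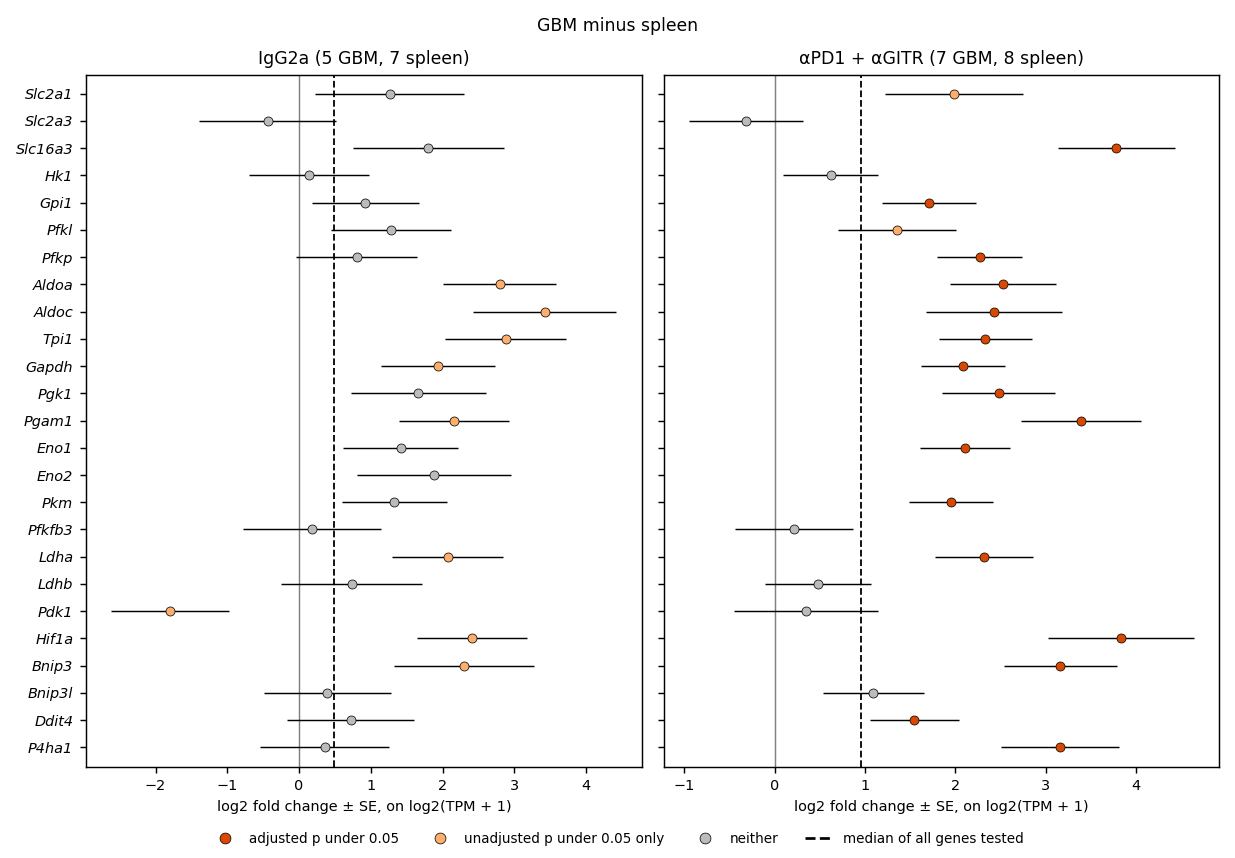
Log2 fold change of GBM against spleen with its SE for the members tested, after IgG2a (left) and after αPD1 + αGITR (right); colors give the result of limma and the dashed line the median of all genes tested (0.48 and 0.95). In treated mice 16 members pass adjustment, and after IgG2a none does, while *Pdk1* lies below 0 on the left only.

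The next comparison asks what αPD1 + αGITR changed within GBM Treg cells. Members were on average higher after treatment, but no more so than other genes. Of 25 members tested, 21 were higher on average, and their median was 0.66 on the log2 scale, against 0.62 for all 7848 genes tested, and 13 of 25 lay above that median. The criterion called 2 members higher and 1 lower, against 16.8% and 4.87% of all genes. None of the 7848 genes passed adjustment in limma, although 1749 had an unadjusted p below 0.05, and the lowest adjusted p of a member was 0.151. With no minimum level 1 of 40755 genes passed, without tumor_73_b 103 of 7914, and without tumor_79_a 21 of 7580. With TMM-type factors the median of the members was -0.04. Of the markers of other cells, 1 of 2 B cell markers tested was called higher (*Igkc*, 2.97, limma adjusted p = 0.0977), as was 1 of 3 candidate tumor cell markers (*Cd44*, 1.29, limma adjusted p = 0.207), and *Vim* was at 0.84 (limma adjusted p = 0.169). None of 7 T cell, 12 macrophage and microglia, 2 neuron and glia or 3 erythroid markers was called, and 1 of 7 Treg markers was called higher (*Ikzf4*, 1.62, limma adjusted p = 0.191). The summed B cell markers were 53.4 to 437 TPM in IgG2a GBM and 146 to 386 TPM in treated GBM. The part of these markers in the members' differences was not tested.

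*Bnip3l* was 15.6, 26.8, 11.3, 12.8 and 102 TPM in IgG2a GBM and 40.2 to 168 TPM in treated GBM, with a median of 66.0. Only library tumor_79_a reached the treated range. The log2 fold change was 1.59 (SE 0.59, limma adjusted p = 0.151, exact permutation p = 0.0278), and it ran from 1.35 to 2.11 with a library left out, with the call kept. With TMM-type factors it was 0.91 and the call was lost. *P4ha1* was 0.60, 8.47, 15.4, 12.4 and 31.5 TPM in IgG2a GBM, in the same order of libraries, and 16.5 to 45.9 TPM in treated GBM, with a median of 29.4. Its log2 fold change was 1.60 (SE 0.67, limma adjusted p = 0.181, exact permutation p = 0.0114), which became 0.94 and lost the call without tumor_369_a. The call was also lost in 4 of 12 alternatives (a pseudocount of 10, TMM-type factors, quantile normalization and libraries of the same number averaged), with a value as low as 0.90.

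*Eno2*, the neuronal enolase, was called lower. It was 80.6 TPM in IgG2a library tumor_369_a and 4.37, 2.11, 4.39 and 3.76 TPM in the others, against 0 to 2.38 TPM in treated GBM. The log2 fold change was -2.37 (SE 0.88, limma adjusted p = 0.154, exact permutation p = 0.00253). It passed the minimum level only through tumor_369_a, and without that library it was not tested. With a pseudocount of 10 it was -0.90 and the call was lost. Its share of the sum with *Eno1* was 28% in tumor_369_a and at most 0.415% in treated GBM.

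Members that did not pass the criterion included *Slc16a3* (log2 difference 1.74, SE 0.84), *Pgk1* (1.24, SE 0.69), *Pfkp* (1.21, SE 0.62) and *Hif1a* (0.99, SE 0.48). For *Hif1a*, 4 of 7 treated libraries exceeded the highest IgG2a library. Smaller differences were those of *Ldha* at 0.22 (SE 0.34) and *Aldoa* at 0.18 (SE 0.40). Those differences with their SE allow changes of either sign, and they do not show that the groups were alike. *Bnip3* was at a median of 14.9 TPM in IgG2a and 14.8 TPM in treated GBM.

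In the spleen the members' average differences lay on both sides of 0. Of 20 members tested, 9 were higher and 11 lower on average, and their median was -0.03 on the log2 scale, against 0.15 for all 6634 genes tested. With 1 library left out the members' median ran from -0.27 (without spleen_79_d) to 0.38 (without spleen_79_b). The criterion called 0 members higher and 1 lower, against 1.49% and 1.04% of all genes. No gene tested passed adjustment in limma, and 168 had an unadjusted p below 0.05. The member called was *Pdk1*, at 12.8 to 140 TPM (median 67.5) after IgG2a and 0.26 to 182 TPM (median 21.9) after treatment. These ranges overlapped fully, and the log2 fold change of -1.81 (SE 0.86, limma adjusted p = 1, exact permutation p = 0.0909) lost the call in 9 of 15 fits with a library left out and in 4 of 11 alternatives. Both comparisons that called *Pdk1* lower share the IgG2a splenic libraries. The 19 other members ran from -0.57 (*Pgam1*) to 1.12 (*Tpi1*).

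**Figure D5:**
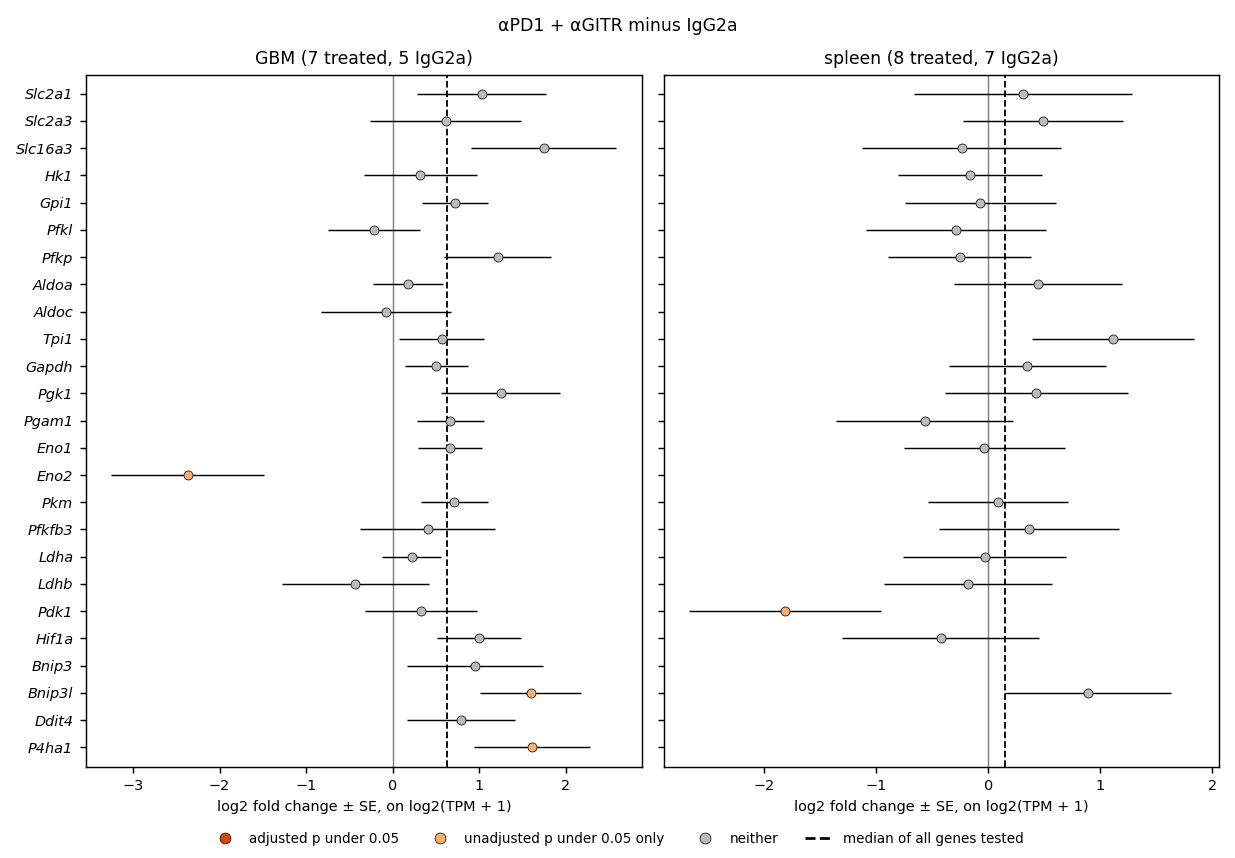
Log2 fold change of αPD1 + αGITR against IgG2a with its SE for the members tested in GBM (left) and spleen (right); colors give the result of limma and the dashed line the median of all genes tested (0.62 and 0.15). In GBM the members scatter around the dashed line with a median of 0.66, and in spleen around 0 with a median of -0.03.

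Whether treatment acted differently in the 2 tissues was tested as an interaction over all 4 groups. Of 25 members, 1 had an unadjusted limma p below 0.05, against 12.2% of the 8687 genes tested, and it did not pass adjustment. This was *P4ha1*, with a difference of differences of 2.80 (SE 1.04, limma adjusted p = 0.317): it went from a median of 12.4 to 29.4 TPM in GBM and from 4.32 to 3.32 TPM in spleen. *Pdk1* had 2.14 (SE 1.16) and *Slc16a3* 1.98 (SE 1.26). For *Ldha* the value was 0.25 (SE 0.92) and for *Gapdh* 0.15 (SE 0.88). Among the markers of other cells, *Igkc* had 3.30 (limma adjusted p = 0.37) and *Mbp* -2.42 (limma adjusted p = 0.378), both with an unadjusted p below 0.05, and their part was not tested. No gene tested passed adjustment here, and 1056 had an unadjusted p below 0.05. That the tissue difference of a member passed adjustment after treatment and not after IgG2a is therefore not shown to be a difference between treatments.

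Other genes of the same pathways, from lists that do not contain the members, were tested in the same fits. Their counts in treated mice stand beside 33.9% called higher and 15.8% higher past adjustment among all genes, and several are near those shares. In treated mice, 3 of 8 tested genes of other glycolysis and glucose transport (28 in the table) were called higher in GBM, led by the phosphoglucomutase genes *Pgm1* (2.22, SE 0.75, limma adjusted p = 0.0445) and *Pgm2* (1.84, SE 0.72, limma adjusted p = 0.0693). The pentose phosphate pathway, which branches off at glucose 6-phosphate, had 4 of 6 called higher and 3 past adjustment, led by *Pgd* (2.19, SE 0.67, limma adjusted p = 0.0315) and *Pgls* (1.30, SE 0.43, limma adjusted p = 0.041). For the entry of pyruvate into mitochondria 2 of 9 were called higher, the 2 subunits of the pyruvate carrier, *Mpc2* (2.55, SE 0.79, limma adjusted p = 0.0335) and *Mpc1* (1.49, SE 0.59, limma adjusted p = 0.0717).

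Of 9 tested genes of the HIF pathway, 4 were called higher in treated GBM, with *Cited2*, which competes with HIF-1α for its coactivator, at 2.34 (SE 0.70, limma adjusted p = 0.0288) and the ligase scaffold *Cul2* at 2.34 (SE 0.76, limma adjusted p = 0.0386). Of 13 tested other hypoxia-inducible genes, 7 were called higher and 1 lower, and 3 passed adjustment. The transcription factor genes *Nfil3* (4.54, SE 0.62, limma adjusted p = 9.71e-05) and *Rora* (2.90, SE 0.60, limma adjusted p = 0.00367) led this list. Both have roles in lymphocytes apart from hypoxia. The medians of the 5 lists ran from 0.84 to 1.45, the highest being that of other hypoxia-inducible genes, against 0.95 for all genes and 2.10 for the members. Members and lists were chosen with earlier results of these data known, so this order is no independent result.

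After IgG2a, no gene of the same lists passed adjustment. Against 7.63% called higher and 2.30% lower among all genes, the calls were 3 higher and 1 lower of 13 other hypoxia-inducible genes, led by *Bhlhe40* (3.31, SE 0.89, limma adjusted p = 0.0753) and *Rora* (2.08, SE 0.85, limma adjusted p = 0.385), and 1 of 7 genes of pyruvate entry, *Mpc1* (1.99, SE 0.93, limma adjusted p = 0.476), with *Pdhb* next (1.52, SE 0.90). In the other 3 lists there were 0 calls, and the genes of lowest p were *Pgm2* (1.43) and *Bsg* (1.19), *Pgd* (1.18) and *Taldo1* (0.92), and *Elob* (1.74) and *Cul2* (1.32).

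For treatment within GBM, 1 of 10 genes of other glycolysis (*Pgm1*, 2.11, SE 0.76; *Galm* next at 1.49), 2 of 6 of the pentose phosphate pathway (*G6pdx*, its entry enzyme, 1.86, SE 0.72; *Tkt*, 1.29, SE 0.57), 3 of 9 of pyruvate entry (led by *Pdk2*, 2.48, SE 0.82, and *Dld*, 2.09, SE 0.70), 1 of 9 of the HIF pathway (*Ep300*, 1.45, SE 0.67; *Cited2* next at 1.17) and 2 of 12 other hypoxia-inducible genes (*Fam162a*, 2.47, SE 0.85, and *Higd1a*, 1.98, SE 0.75) were called higher and 0 lower, against 16.8% of all genes. None passed adjustment. For treatment within spleen 0 genes of the 5 lists were called, and those of lowest p were *Bpgm* (0.55) and *Bsg* (0.38), *G6pdx* (1.25) and *Rpe* (1.30), *Mpc2* (-1.15) and *Pdhb* (0.52), *Eloc* (0.53) and *Elob* (0.44), and *Hmox1* (0.92) and *Insig2* (0.80). In the interaction the genes of lowest p were *Pgm1* (2.47) and *Pfkfb1* (-1.08), *Tkt* (1.55) and *Pgls* (1.19), *Mpc2* (2.84) and *Dld* (2.28), *Cited2* (2.19) and *Ep300* (1.44), and *Nfil3* (2.41) and *Bhlhe40* (-2.23), with the lowest limma adjusted p at 0.335.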

How the data were processed

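Bulk RNA-seq was measured in sorted Treg cells. Per the labels, the submitters' processing notes name bcl2fastq, TopHat2 and mm10, and the study's methods give RSEM. The deposited values of 53801 features are TPM with 1 added (checked on column sums), and 1 was subtracted. The study's methods describe bead capture of RNA, Nextera XT libraries and sequencing on a NextSeq500, then a filter for values above 10 and low variation, with Multiplot and Morpheus. The deposited table also holds features below that level. TPM keeps no read depth, so no counting interval can be given. Of 28 libraries described, 27 were used; 1 value column has no name and was not used, and 1 of the 9 treated splenic libraries described was not analysed here.

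Groups came from the labels. Differences were tested on log2(TPM + 1) with limma (version 3.58.1, R 4.3.3; empirical Bayes with trend) in the 2 groups compared, on genes with a mean above 10 TPM in at least 1 group, and p-values were adjusted by Benjamini-Hochberg over all genes tested. Fold changes on this scale understate those of low genes. Single members also had a two-sided exact permutation test of mean log2(TPM + 1), whose smallest p is 0.00126 for 5 against 7 libraries and 0.000155 for 7 against 8. The code of the fits was checked on simulated data, and the outcome is not reported here. A member was given a fold change with its tests where limma's unadjusted p was below 0.05, other pathway genes as counts with the 2 of lowest p; further members were named for their levels after their values were seen. The members and lists were chosen with earlier results of these data known. Promoter sequences matched 30 of 32 members (RefSeq, GRCm38.p6), with no entry used for *Bnip3l* and *Slc2a3*. Alternatives changed the pseudocount, the minimum level, the scaling, the libraries and the covariates.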

Additional observations from a re-analysis of the deposited data

Results flagged for a closer look

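Of 128 combinations of member and group, 12 held a library far from the rest of its group on log2(TPM + 1), by Dixon's ratio of gap to range. Chance flags about 1 in 20. In IgG2a GBM, library tumor_369_a was the lowest by far for *Slc2a1* (0.21 TPM), *Hk1* (1.82 TPM), *Pfkp* (3.6 TPM) and *Pgk1* (3.63 TPM), and the highest by far for *Eno2* (80.58 TPM). In treated GBM, library tumor_73_a was the highest for *Aldoa* (1267.18 TPM) and *Tpi1* (627.06 TPM) and the lowest for *Slc2a3* (0.57 TPM), and library tumor_70_b the lowest for *Pfkl* (9.5 TPM). In treated spleen, *Pgam1* was listed at 0.0 TPM in spleen_72_b, *Vegfa* was 2.25 TPM in spleen_80_a, and *Ankrd37* was 14.96 TPM in spleen_74_a. The treatment difference of *P4ha1* differed between GBM and spleen by 2.80 on the log2 scale in the interaction test (limma adjusted p = 0.317), and it did not pass adjustment.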

How the results depend on the processing

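No fold change of a member that passed the criterion changed sign in any alternative run. After αPD1 + αGITR, the count of members higher in GBM past adjustment was 16, and became 7 with no minimum level, 9 with libraries of the same number averaged and 10 without the macrophage-rich libraries. It was 13 (without tumor_70_a, tumor_70_b or tumor_73_a, where 7.93% to 9.38% of all genes passed) to 17 (without spleen_73_a, 30.1%) with 1 library left out. After IgG2a, the criterion's count of 9, beside 9.93% of all genes, was 6 (without tumor_79_a, 7.9%) to 13 (without spleen_79_b, 12.7%, or tumor_369_a, 11.8%). For treatment in GBM the count of 3, beside 21.7% of all genes, became 1 with a pseudocount of 10 (12.4%) and 1 with TMM-type factors (13.9%). With 1 left out it was 1 (without tumor_369_a, 15.0%) to 6 (without tumor_77_a, 21.7%, or tumor_78_a, 22.8%), and 5 without tumor_76_a (24.1%) or tumor_79_a (26.6%). In spleen the count of 1, beside 2.53% of all genes, became 0 with a pseudocount of 0.1 or 10, with no minimum level and with the number of detected genes as a covariate (1.18% to 2.4%), and was 0 to 1 with 1 left out. In the interaction the count of 1, beside 12.2% of all genes, became 2 with a pseudocount of 0.1, no minimum level, TMM-type factors, rescaling without the 10 most abundant features or to protein-coding genes, and with the covariate (5.7% to 13.2%), and was 1 to 2 with 1 left out. The causes were not tested. For libraries that share a label number between tissues, the correlation of deviations was -0.305 to 0.09 over 12 pairs after treatment and -0.115 to 0.182 over 7 after IgG2a. Of the GBM libraries with a same-numbered spleen, 1 of 7 after treatment and 2 of 4 after IgG2a correlated best with it. Values this low neither show a pairing nor exclude that such libraries share a mouse. With the number as a replicate block, 14 members passed adjustment and 17 the criterion after treatment, against 6.59% and 30.4% of all genes, and 7 passed the criterion after IgG2a, against 9.97%, where *Ldha* and *Gapdh* lost the call. *Pfkl* lost it after treatment. Rescaling to protein-coding genes and leaving out macrophage-rich libraries were chosen after seeing the data. Depth is unknown, so levels near 0 cannot be told from missed transcripts.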
